A study of Mus musculus with 11 samples.

Results

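The 9 genes described here make up the core of the inflammasome and the interleukin-1 system in mouse heart: Casp1, Casp4, Pycard, Nlrp3, Gsdmd, Il1b, Il18, Il1r1 and Txn1. They were chosen by name, by matching the Ensembl identifiers of a heart count table with 22608 genes to GENCODE mouse release 21, and all 9 had a row. Of these, 7 were abundant enough to be tested, and Nlrp3 and Il18 lay under the filter (at least 1 log2 CPM on average, where CPM are counts scaled to a common library size).

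An inflammasome is a protein complex in which a sensor such as NLRP3 meets a danger signal and gathers the adaptor ASC, the product of Pycard, which in turn activates caspase-1. Caspase-1 cuts the precursors of interleukin-1β and interleukin-18 into their active forms and cuts gasdermin D, whose free end opens pores in the cell membrane. The product of Casp4, known in mice as caspase-11, responds to bacterial lipopolysaccharide and also cuts gasdermin D. Interleukin-1β acts through the receptor encoded by Il1r1. Thioredoxin, encoded by Txn1, is a redox protein that binds TXNIP, and TXNIP released from it can bind NLRP3. In the heart these genes are best known for their part in the injury response of macrophages, fibroblasts and endothelial cells.

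The series profiled ventricle RNA from 11 male mice on a C57BL/6J background, aged 8 to 16 weeks, in 4 groups. The complete-deletion (CD) mice model Williams-Beuren syndrome and carry 1 copy of the region from Gtf2i to Fkbp6 in every cell, whereas wild-type (WT) mice carry both copies. For 10 days mice received vehicle (VEH; the labels call these animals untreated) or 8 mg/kg of JZL184, an inhibitor of monoacylglycerol lipase, the enzyme that degrades an endocannabinoid. There were 2 hearts of WT VEH mice and 3 each of WT JZL184, CD JZL184 and CD VEH mice, and each mouse is named below by its group and the letter of its column. Of the deleted genes, 14 were tested and all 14 were lower in every CD heart than in every WT heart, and the median of their log2 fold-changes between the vehicle groups was -1.01.

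Libraries held between 69660232 and 92251443 estimated counts, and transcripts of the mitochondrial genome took between 36.4% and 46.6% of them. That share was 43.5% or more in every CD VEH and WT JZL184 heart and 41.2% or less in every other heart. Long and short genes also moved differently: across 11240 genes the Spearman correlation of log2 fold-change with transcript length was -0.41 in CD VEH versus WT VEH, 0.45 in CD JZL184 versus CD VEH and -0.33 in WT JZL184 versus WT VEH. One heart stood apart, CD VEH mouse A, in which 5 erythroid marker genes summed to 18786 CPM against 1416 to 5498 in the other 10 hearts. Cardiomyocyte markers summed to 33425 CPM or more in every heart.

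Casp1 and Casp4 are neighbouring, related genes on chromosome 9, and 1562 bases separate them in the annotation. Their promoters are shown with that of Il1b, since Il1b and Casp1 had the largest changes of the tested members and Casp4 lay beside Casp1 without passing the test in any pair of groups. The windows run from 250 bases before to 50 bases after the annotated start, from RefSeq on build GRCm38.p6, and 8 of the 9 genes had an entry. Capitals mark matches to any of the motifs searched on both strands.
Casp1 (chr9:5298267-5298566, plus strand): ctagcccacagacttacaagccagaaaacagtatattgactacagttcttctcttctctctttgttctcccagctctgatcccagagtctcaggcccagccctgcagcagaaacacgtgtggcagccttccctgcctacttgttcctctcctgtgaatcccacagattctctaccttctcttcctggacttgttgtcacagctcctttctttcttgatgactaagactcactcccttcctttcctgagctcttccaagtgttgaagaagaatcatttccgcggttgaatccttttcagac
Casp4 (chr9:5308599-5308898, plus strand): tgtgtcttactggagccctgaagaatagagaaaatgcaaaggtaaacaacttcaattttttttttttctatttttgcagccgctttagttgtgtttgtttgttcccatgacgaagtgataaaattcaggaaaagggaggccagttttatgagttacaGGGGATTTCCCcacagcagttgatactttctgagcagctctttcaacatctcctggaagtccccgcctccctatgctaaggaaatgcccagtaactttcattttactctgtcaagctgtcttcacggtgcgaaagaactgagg
Il1b (chr2:129371090-129371389, minus strand): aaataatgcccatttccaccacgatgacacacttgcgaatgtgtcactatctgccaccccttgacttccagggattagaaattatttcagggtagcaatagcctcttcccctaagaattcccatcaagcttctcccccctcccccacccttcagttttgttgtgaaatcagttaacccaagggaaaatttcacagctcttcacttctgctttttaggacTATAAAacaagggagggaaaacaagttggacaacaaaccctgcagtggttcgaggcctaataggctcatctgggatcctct
The motifs were the TATA box (TATAAA), AP-1 (TGANTCA), GAS (TTCNNNGAA), IRF (GAAA, any 2 bases, GAAA) and kappaB. The capitals of Il1b are a TATA box at -31 to -26 from the start, a motif that 13.6% of all 32817 promoters of this length held. Those of Casp4 are overlapping kappaB matches, on both strands, that together span -93 to -83 from this start (-104 to -94 from a second annotated start), and 1478 of the 32817 promoters held a kappaB match. None of the motifs matched in the Casp1 window. The shares for the other motifs were 7.81% for AP-1, 8.29% for GAS and 3.43% for IRF.

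Il1b, which encodes the interleukin-1β precursor, lies on chromosome 2 (129364570-129371139, minus strand). It was measured at 1.42 and 1.16 CPM in WT VEH mice C and D, at 3.75, 2.42 and 4.63 CPM in CD VEH mice A, C and E, at 1.25, 2.01 and 1.56 CPM in CD JZL184 mice A, C and E, and at 1.52, 3.06 and 1.66 CPM in WT JZL184 mice A, B and D. Every CD VEH heart lay above every WT VEH and every CD JZL184 heart, and among WT JZL184 hearts mouse B reached the CD VEH range.

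Casp1, which encodes the protease at the centre of the complex (chromosome 9, 5298517-5307265), stood at 1.69 and 1.62 CPM in WT VEH mice C and D and at 3.47, 1.97 and 3.12 CPM in CD VEH mice A, C and E. In CD JZL184 mice A, C and E it was at 1.74, 2.18 and 1.52 CPM, and in WT JZL184 mice A, B and D at 2.98, 4.41 and 2.98 CPM. CD VEH mouse C sat inside the CD JZL184 range, while all WT JZL184 hearts were above all WT VEH and CD JZL184 hearts.

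Gsdmd, the pore-forming substrate of caspase-1 (chromosome 15, 75862327-75867408), was at 5.56 and 4.93 CPM in WT VEH mice C and D and at 8.20, 7.14 and 8.55 CPM in CD VEH mice A, C and E. It was at 4.86, 5.96 and 5.34 CPM in CD JZL184 mice A, C and E and at 6.50, 9.92 and 8.02 CPM in WT JZL184 mice A, B and D. The CD VEH and WT JZL184 hearts were all above the WT VEH and CD JZL184 hearts.

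Il1r1, the signalling receptor for interleukin-1 (chromosome 1, 40225080-40317257), had the smallest standard errors of the tested members. It was at 11.6 and 10.7 CPM in WT VEH mice C and D, at 13.4, 12.6 and 14.2 CPM in CD VEH mice A, C and E, at 10.98, 10.3 and 10.9 CPM in CD JZL184 mice A, C and E, and at 14.2, 15.1 and 15.2 CPM in WT JZL184 mice A, B and D. The same separation of CD VEH and WT JZL184 hearts from the other groups was seen as for Gsdmd.

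The remaining members were Txn1, Pycard, Casp4, Nlrp3 and Il18. Txn1 was the most abundant, at 35.5 ± 1.07 CPM in WT VEH (SD, n = 2), 41.6 ± 3.27 in CD VEH (n = 3), 33.6 ± 1.61 in CD JZL184 (n = 3) and 42.2 ± 4.49 in WT JZL184 (n = 3). Its CD VEH and WT JZL184 hearts all lay above its WT VEH and CD JZL184 hearts, as for Gsdmd and Il1r1. Pycard was at 7.004 ± 0.394 CPM in WT VEH, 8.24 ± 0.937 in CD VEH, 6.22 ± 0.511 in CD JZL184 and 6.86 ± 1.04 in WT JZL184, and the hearts of CD VEH (7.18 to 8.98) overlapped those of WT VEH and WT JZL184. Casp4 was at 3.07 ± 0.465, 3.68 ± 0.781, 3.09 ± 0.174 and 3.93 ± 0.404 CPM in the same order of groups. The sensor gene Nlrp3 stayed between 0.338 and 0.808 CPM, and the cytokine gene Il18 between 0.128 and 0.435 CPM, in all 11 hearts. A count of 3 corresponded to at most 0.0433 CPM in any library, so both were detected in every heart.

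**Figure D1:**
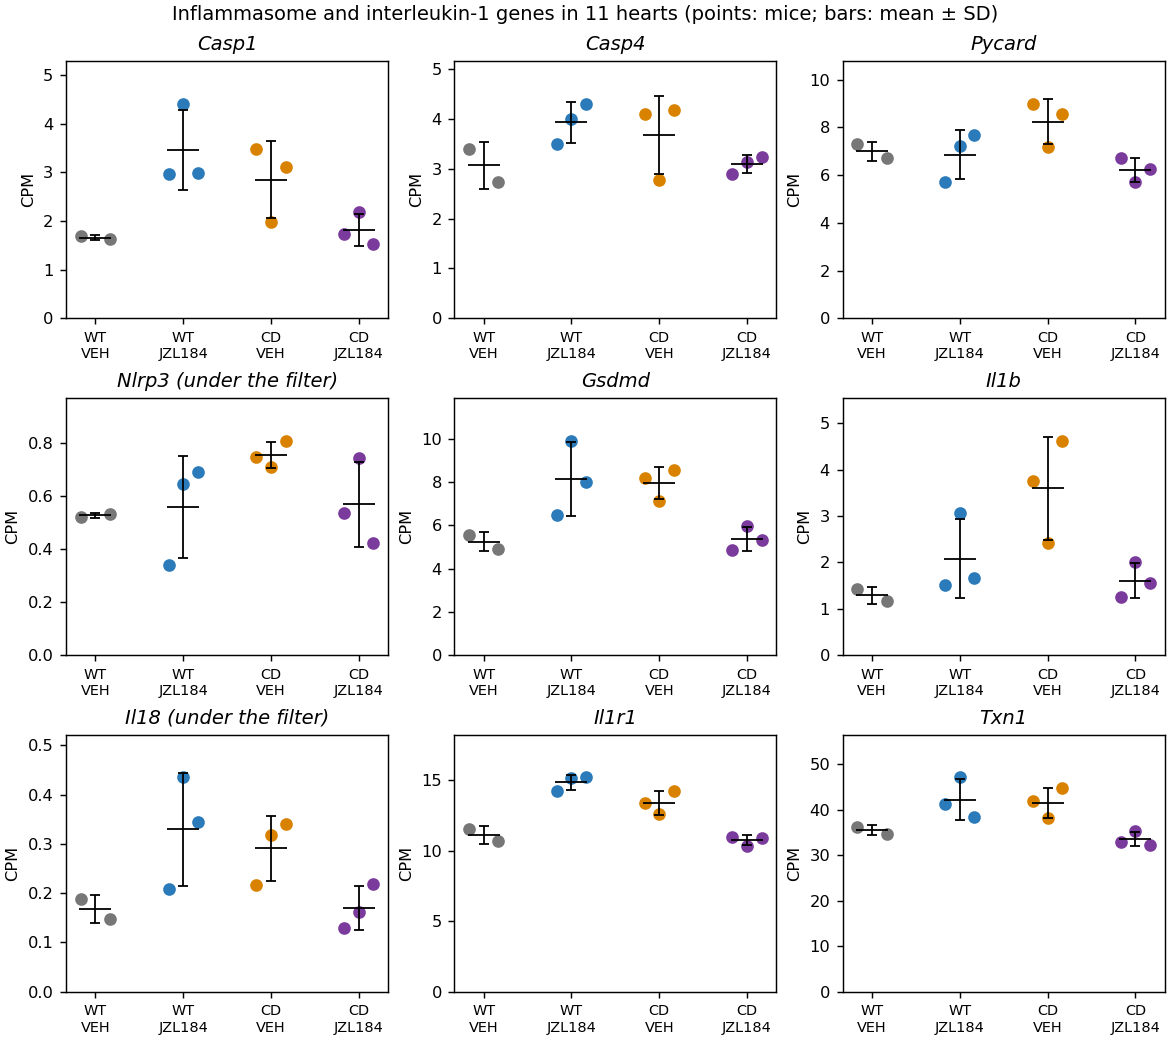
Expression of the 9 genes in CPM (y axis, starting at 0) in each heart (points), by group on the x axis, with the group mean and SD as bars (n = 2 for WT VEH and n = 3 for the other groups). Gsdmd, Il1r1 and Txn1 of CD VEH and WT JZL184 hearts lie above all WT VEH and CD JZL184 hearts. Pycard of WT JZL184 hearts spans 5.69 to 7.69 CPM.

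Levels were set against each other per kilobase of the longest coding transcript. Txn1 was the highest, at 36.4 CPM per kb (mean of the 4 groups), followed by Gsdmd at 3.73, Casp4 at 2.40, Il1r1 at 2.15, Casp1 at 1.63, Il1b at 1.58, Il18 at 0.271 and Nlrp3 at 0.150. Across hearts Txn1 ranged from 30.8 to 44.8 CPM per kb and did not overlap any other member. Each neighbouring pair below it overlapped except Il1b and Il18: Gsdmd ranged from 2.71 to 5.54, Casp4 from 1.91 to 2.99, Il1r1 from 1.77 to 2.61, Casp1 from 1.02 to 2.94, Il1b from 0.859 to 3.41, Il18 from 0.145 to 0.492 and Nlrp3 from 0.0840 to 0.201 CPM per kb. Pycard was left out of this order because its annotated coding transcripts are 3800 and 493 bases long, which moves its place.

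The first question was what the deletion changed without treatment. In CD VEH versus WT VEH, 4 of the 7 tested members rose and none fell (edgeR quasi-likelihood test, adjusted p under 0.05), and over all 11319 genes tested 15.0% rose and 15.4% fell. Il1b rose the most, by a log2 fold-change of 1.48 ± 0.35 (SE; adjusted p = 0.0102), which is 2.80-fold. It passed the filter through the CD VEH hearts, where it was highest, so its rank and its call are not independent of that group. Casp1 rose by 0.79 ± 0.26 (adjusted p = 0.0393), Gsdmd by 0.60 ± 0.16 (adjusted p = 0.0174) and Il1r1 by 0.27 ± 0.07 (adjusted p = 0.0193). For Casp4, Pycard and Txn1 the log2 fold-changes were 0.27, 0.24 and 0.23 with adjusted p of 0.265, 0.200 and 0.0809. The median of the 7 members was 0.27, beside 0.01 for all genes tested. Casp1 is also on an inflammasome gene list that the study drew from these same hearts, so its direction is not independent evidence. In the 4 fits that lost 3 or 4 of these calls, the calls over all genes were also fewer, at 3440 with all mice and 1930 without CD VEH mouse A, 1976 without CD VEH mouse E, 385 without WT VEH mouse C and 1217 without WT VEH mouse D. Of the 4 calls, 1 (Il1b) held without CD VEH mouse A, the heart with the high erythroid sum, and none held without CD VEH mouse E or without either WT VEH mouse. Il1b fell under the filter without mouse E, and also in models of only WT JZL184 and WT VEH or only CD JZL184 and WT JZL184 hearts. With no filter, an alternative added after seeing the data, it was at 1.27 without mouse E (adjusted p = 0.0237). Over the other alternatives the log2 fold-changes stayed above 0, at 1.31 to 1.70 for Il1b, 0.62 to 0.99 for Casp1, 0.48 to 0.69 for Gsdmd and 0.21 to 0.38 for Il1r1. Macrophage markers, 14 genes in all, summed to 441 to 568 CPM in CD VEH and 337 to 354 CPM in WT VEH, and in bulk RNA fewer cells of a type and less RNA per cell cannot be told apart. With an offset for gene length Casp1 was at 0.63 (adjusted p = 0.0758) and Txn1 at 0.00222 (adjusted p = 0.983).

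The second question was what JZL184 changed in CD mice. In CD JZL184 versus CD VEH, 6 of the 7 tested members fell and none rose, beside 17.0% of all genes tested that fell and 16.8% that rose. Il1b, which passed the filter through the CD VEH hearts, fell by 1.16 on the log2 scale (SE 0.29, adjusted p = 0.0117), to 0.448 of its CD VEH level. Casp1 fell by 0.65 (SE 0.22, adjusted p = 0.0415), Gsdmd by 0.56 (SE 0.14, adjusted p = 0.0117) and the adaptor gene Pycard by 0.41 (SE 0.12, adjusted p = 0.0233). Il1r1 fell by 0.32 (SE 0.07, adjusted p = 0.00508) and Txn1 by 0.31 (SE 0.08, adjusted p = 0.015). Casp4 had a log2 fold-change of -0.25 (95% interval -0.59 to 0.09, adjusted p = 0.224). The median of the 7 members was -0.41, beside -0.00240 for all genes tested. Without CD VEH mouse A 3 members fell (Il1b, Gsdmd and Il1r1), without CD JZL184 mouse E also 3 (Il1b, Gsdmd and Il1r1), and without CD VEH mouse E 1 (Il1r1). Calls over all genes were also fewer in these fits, at 3831 with all mice and 2098, 2150 and 2038 in that order. Il1b was again under the filter without mouse E, and with no filter it was at -0.93 there (adjusted p = 0.0463). With an offset for gene length, Txn1 was at -0.07 (adjusted p = 0.416) and Casp1 at -0.49 (adjusted p = 0.0941), and with one for GC content Casp1 was at -0.59 (adjusted p = 0.0631), so that neither call held.

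The third question was what JZL184 changed in WT mice, in which the members that passed rose. In WT JZL184 versus WT VEH, 3 of the 7 tested members rose and none fell, beside 15.4% of all genes that rose and 14.0% that fell. Casp1 rose by a log2 fold-change of 1.06 ± 0.26 (SE; adjusted p = 0.0126), Gsdmd by 0.63 ± 0.16 (adjusted p = 0.0145) and Il1r1 by 0.42 ± 0.07 (adjusted p = 0.00384). Il1b had a log2 fold-change of 0.68 with a 95% interval of -0.08 to 1.45 (adjusted p = 0.156), and 1 heart, WT JZL184 mouse B, lay far above the other two. Txn1 was at 0.25 (adjusted p = 0.0625; 0.05 with an offset for gene length), Casp4 at 0.36 (adjusted p = 0.14) and Pycard at -0.03 (95% interval -0.32 to 0.27, adjusted p = 0.89). The median of the 7 members was 0.42, beside -0.00264 over all genes. Leaving out either WT VEH mouse, which left 1 heart in that group, lost the calls of Casp1 and Gsdmd but not that of Il1r1. Calls over all genes were also fewer in those fits. Over the alternatives the log2 fold-changes stayed above 0, at 0.85 to 1.16 for Casp1, 0.47 to 0.78 for Gsdmd and 0.36 to 0.48 for Il1r1.

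Under JZL184 the genotypes stood in the opposite order. In CD JZL184 versus WT JZL184, 4 of the 7 tested members were lower and none was higher, beside 20.1% of all genes that were lower and 18.2% that were higher. Casp1 was lower by a log2 fold-change of -0.92 ± 0.22 (adjusted p = 0.00786), Gsdmd by -0.59 ± 0.14 (adjusted p = 0.00729), Il1r1 by -0.47 ± 0.07 (adjusted p = 0.000849) and Txn1 by -0.33 ± 0.08 (adjusted p = 0.00899). With an offset for gene length Txn1 was at -0.12 and no longer passed (adjusted p = 0.15). Il1b did not pass the test, at -0.36 (95% interval -1.01 to 0.29). These 4 comparisons share groups with each other, so their values are set side by side and are not independent of one another.

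**Figure D2:**
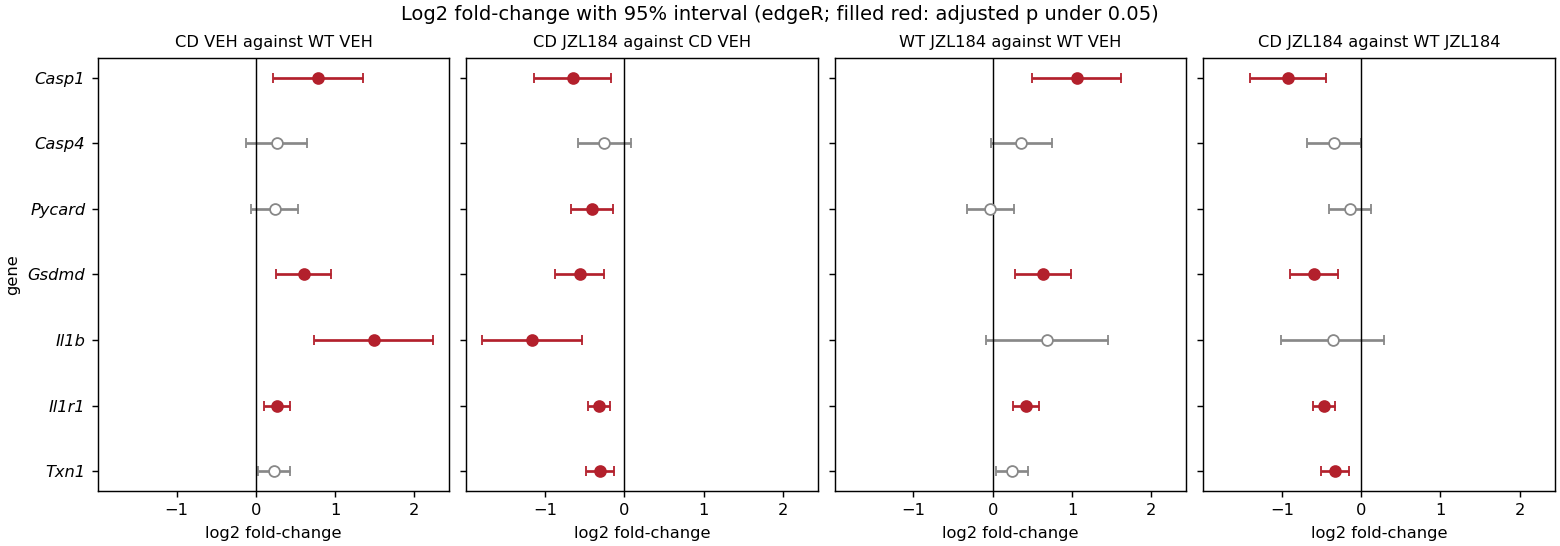
Log2 fold-change (x axis) of the 7 tested genes (y axis) in the 4 comparisons, one per panel, with 95% intervals from edgeR. Filled red points passed an adjusted p of 0.05, and the CD VEH and WT JZL184 panels against WT VEH lie mostly to the right of 0 while both CD JZL184 panels lie to its left.

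The difference between the JZL184 effect in CD and in WT mice was tested directly, as an interaction in the same model. It was below 0 for all 7 tested members and passed the threshold for 6 of them, beside 26.2% of all genes tested with a negative and 25.3% with a positive difference that passed. The differences in log2 fold-change were -1.84 ± 0.45 for Il1b (SE; adjusted p = 0.00577), -1.71 ± 0.34 for Casp1 (adjusted p = 0.00178), -1.20 ± 0.21 for Gsdmd (adjusted p = 0.000946), -0.74 ± 0.10 for Il1r1 (adjusted p = 0.00024), -0.61 ± 0.24 for Casp4 (adjusted p = 0.0461) and -0.56 ± 0.12 for Txn1 (adjusted p = 0.00316). Pycard was at -0.38 with an interval of -0.77 to 0.02 (adjusted p = 0.0987). Casp1, Gsdmd and Il1r1 passed in 19 of 19 alternatives and Il1b in 18 of the 18 in which it stayed over the filter, whereas Txn1 passed in 18 of 19 and Casp4 in 9 of 19. With the offset for gene length, Txn1 was at -0.12 (adjusted p = 0.301) and Casp4 at -0.30 (adjusted p = 0.293). For Il18, a fit without the filter on low counts gave a difference of -1.73 ± 0.54 (adjusted p = 0.0218), and for Nlrp3 it gave -0.48 ± 0.41 (adjusted p = 0.421). In that fit neither gene passed in CD VEH versus WT VEH (Il18 0.80, adjusted p = 0.200; Nlrp3 0.52, adjusted p = 0.27).

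The 2 comparisons across both genotype and treatment gave no member past the threshold. In CD JZL184 versus WT VEH, the 7 log2 fold-changes ran from -0.17 for Pycard to 0.33 for Il1b, 0 members passed edgeR's adjusted threshold and 0 had an unadjusted p under 0.05, beside 1062 of all 11319 genes under that p and 0.0442% that rose and 0.141% that fell past the adjusted threshold. In WT JZL184 versus CD VEH, 0 members passed and 3 had an unadjusted p under 0.05 (Pycard, Il1b and Il1r1). Of all 11319 genes tested, 1185 had an unadjusted p under 0.05, and 0.256% rose and 0.106% fell past the adjusted threshold. Il1b was the gene furthest from 0 there, at -0.80 with an interval of -1.43 to -0.18 (adjusted p = 0.34), while Gsdmd was at 0.03 (interval -0.27 to 0.33) and Casp1 at 0.27 (interval -0.20 to 0.74). Under DESeq2 no member passed in either comparison.

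Cell type markers moved with these genes. The sum of 14 macrophage markers was 337 to 354 CPM in WT VEH, 441 to 568 in CD VEH, 296 to 345 in CD JZL184 and 432 to 734 in WT JZL184. Of the 14 markers, 7 rose in CD VEH versus WT VEH, 11 fell in CD JZL184 versus CD VEH and 11 rose in WT JZL184 versus WT VEH, with none in the opposite direction. The endothelial sum (10 genes) was likewise higher in all CD VEH and WT JZL184 hearts than in the other groups. It was 793 to 803, 993 to 1101, 758 to 854 and 1146 to 1241 CPM for WT VEH, CD VEH, CD JZL184 and WT JZL184. Smooth muscle and pericyte markers (7 genes) summed to 604 to 611, 831 to 959, 591 to 607 and 872 to 946 CPM in that order, fibroblast markers (9 genes) to 1643 to 1661, 1757 to 2003, 1455 to 1689 and 1850 to 2310 CPM, and monocyte markers (8 genes) to 56.9 to 60.1, 58.0 to 61.6, 48.2 to 58.9 and 60.5 to 78.8 CPM. Of 5 adipocyte markers only Fabp4, which capillary endothelial cells also express, was over the filter, and their sum of 260 to 267, 405 to 478, 263 to 305 and 431 to 618 CPM was nearly all Fabp4. Cardiomyocyte markers (9 genes) went the other way in part, with sums of 47287 to 47574, 39519 to 42766, 43786 to 46684 and 33425 to 44483 CPM in that order: 4 of 9 fell and none rose in CD VEH versus WT VEH and in WT JZL184 versus WT VEH, and 3 rose and 1 fell in CD JZL184 versus CD VEH. All 5 erythroid markers fell in CD JZL184 versus CD VEH, but their sum was 18786 CPM in CD VEH mouse A and 2878 and 2027 CPM in mice C and E, beside 1416 to 2189 CPM in CD JZL184, and 0 of 5 were called without mouse A (edgeR).

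Divided by the macrophage sum, the members parted, and for some the order of the groups turned. Il1r1 was at 2.51 to 2.85 CPM per 100 CPM of macrophage markers in CD VEH, below the 3.01 to 3.43 of WT VEH and the 2.99 to 3.70 of CD JZL184. Txn1 was likewise at 7.86 to 8.66 in CD VEH, below WT VEH (9.83 to 10.8) and CD JZL184 (10.3 to 11.1). Casp4 of CD VEH (0.630 to 0.837) was below CD JZL184 (0.911 to 1.03) and overlapped WT VEH (0.773 to 1.01). Gsdmd was at 1.39 to 1.65 in WT VEH, 1.505 to 1.68 in CD VEH, 1.64 to 1.73 in CD JZL184 and 1.32 to 1.503 in WT JZL184, so that CD VEH and WT VEH hearts overlapped and CD VEH hearts lay just above WT JZL184 hearts. Casp1 overlapped between all groups, at 0.458 to 0.502, 0.447 to 0.711, 0.488 to 0.631 and 0.491 to 0.688 in that order. Il1b was at 0.550 to 0.814 in CD VEH and 0.422 to 0.584 in CD JZL184, and these groups overlapped. Both lay above the 0.329 to 0.420 of WT VEH and the 0.273 to 0.417 of WT JZL184, CD JZL184 only just. Pycard was at 0.981 to 1.32 in WT JZL184, under the 1.505 to 2.27 that covered the hearts of all other groups. Divided by the endothelial sum instead, Il1b of CD VEH hearts (0.244 to 0.435 CPM per 100 CPM of markers) lay above WT VEH (0.147 to 0.176) and overlapped WT JZL184 (0.133 to 0.247). These ratios are descriptions without a test, and the part of cell makeup in the members' changes was not tested.

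**Figure D3:**
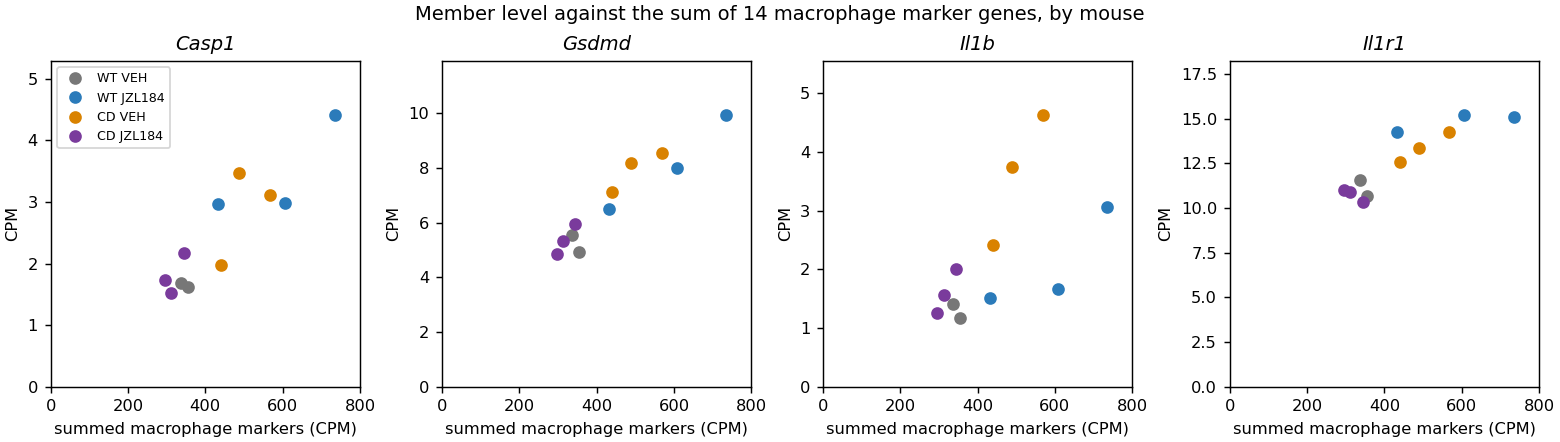
CPM of Casp1, Gsdmd, Il1b and Il1r1 (y axes, starting at 0) against the summed CPM of 14 macrophage markers (x axis), with 1 point per heart coloured by group. Il1b of CD VEH hearts, at 2.42 to 4.63 CPM, lies above WT JZL184 mice A and D and on both sides of mouse B (3.06 CPM at the highest macrophage sum, 734 CPM). Gsdmd per 100 CPM of the macrophage sum spans 1.505 to 1.68 in CD VEH and 1.32 to 1.503 in WT JZL184.

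Neutrophils, which also make interleukin-1β, left little RNA. None of 9 neutrophil markers passed the filter, 3 of them averaged under 3 counts a library, and their sum was 2.74 to 6.40 CPM in WT VEH, 3.88 to 14.1 in CD VEH, 2.70 to 6.12 in CD JZL184 and 2.99 to 7.73 in WT JZL184. The highest sums, 14.1 and 8.74 CPM, were in CD VEH mice A and E, the 2 hearts with the highest Il1b. In CD VEH mouse C the neutrophil sum was 3.88 CPM and Il1b was at 2.42 CPM. In WT VEH mice C and D the sums were 6.40 and 2.74 CPM and Il1b was at 1.42 and 1.16 CPM. These sums rest on few counts, and the part of neutrophils in the Il1b values was not tested. Lymphocyte markers (9 genes, none over the filter) summed to 4.90 CPM or less in every heart.

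The rest of the pathway was read from lists of related genes, whose counts stand beside the shares of all genes tested that passed: 15.0% rose and 15.4% fell in CD VEH versus WT VEH, 16.8% rose and 17.0% fell in CD JZL184 versus CD VEH, and 15.4% rose and 14.0% fell in WT JZL184 versus WT VEH. Among 13 other sensor genes only 4 were abundant enough to be tested, and Nod2, a receptor for bacterial cell wall fragments, was the one that passed in these 3 comparisons, falling by 0.40 on the log2 scale in CD JZL184 versus CD VEH (adjusted p = 0.0237). None of the 4 passed in CD VEH versus WT VEH or in WT JZL184 versus WT VEH, and 3 were lower in CD JZL184 versus WT JZL184 (Nod2, and Naip2 and Naip5, named after their values were seen).

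Among 23 regulators and effectors, 21 were tested. In CD VEH versus WT VEH 6 rose and 1 fell, in CD JZL184 versus CD VEH 6 fell and none rose, and in WT JZL184 versus WT VEH 8 rose and 1 fell. Hmox1, the haem-degrading enzyme, rose by a log2 fold-change of 1.73 ± 0.55 in CD VEH versus WT VEH (adjusted p = 0.0344) and fell by 1.66 in CD JZL184 versus CD VEH (adjusted p = 0.0193). Without CD VEH mouse E the log2 fold-changes of Hmox1 were 0.79 (adjusted p = 0.0978) and -0.72 (adjusted p = 0.0905). Hmox1, App, Bcl2 and Hsp90ab1 are on the list the study drew from these hearts, so their direction is not independent evidence. Casp8, an initiator of cell death that can also cut gasdermin D, rose by 0.53 with the deletion (adjusted p = 0.0183), fell by 0.58 with JZL184 in CD mice (adjusted p = 0.0066) and rose by 0.72 with JZL184 in WT mice (adjusted p = 0.00605). The interferon-induced GTPase gene Gbp2 had log2 fold-changes of 0.54, -0.57 and 0.74 in the same 3 comparisons, all past the threshold. Casp12 fell by 0.64 in CD JZL184 versus CD VEH and rose by 0.71 in WT JZL184 versus WT VEH. P2rx7, the ATP-gated channel that triggers the complex, rose by 0.56 in WT JZL184 versus WT VEH (adjusted p = 0.0328).

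Of 11 further genes for ligands, receptors and decoys of the interleukin-1 family, 5 were tested. Sigirr, an inhibitory receptor, rose by a log2 fold-change of 0.44 in CD VEH versus WT VEH and by 0.64 in WT JZL184 versus WT VEH, and fell by 0.34 in CD JZL184 versus CD VEH. Il33, the alarmin of stromal and endothelial cells, rose by 1.28 ± 0.30 in WT JZL184 versus WT VEH (adjusted p = 0.0102), as did Il1rap, the accessory chain of the Il1r1 receptor, by 0.35 (adjusted p = 0.0428). The decoy gene Il18bp, whose product binds interleukin-18, fell by 0.30 in CD VEH versus WT VEH (adjusted p = 0.0335). The receptor antagonist gene Il1rn was at or below 0.246 CPM in every heart and was not tested.

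Of 11 genes known to respond to interleukin-1, 3 were tested. The monocyte attractant gene Ccl2 rose by a log2 fold-change of 1.03 ± 0.28 in CD VEH versus WT VEH (adjusted p = 0.0194) and fell by 1.19 in CD JZL184 versus CD VEH (adjusted p = 0.0053). The adhesion molecule gene Icam1 fell by 0.63 in CD JZL184 versus CD VEH (adjusted p = 0.0255), and Vcam1 rose by 0.59 in WT JZL184 versus WT VEH (adjusted p = 0.0369).

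All 27 signalling genes downstream of the receptor were tested, and they were split: 4 rose and 1 fell in CD VEH versus WT VEH, 3 rose and 3 fell in CD JZL184 versus CD VEH, and 5 rose and 2 fell in WT JZL184 versus WT VEH. Their medians, -0.01, 0.06 and -0.03, were near those of all genes. Myd88, the adaptor of the receptor, had log2 fold-changes of 0.40, -0.28 and 0.31 in these comparisons, and Irak3, which restrains the signal, had 0.53, -0.48 and 0.59, all past the threshold. Relb rose by 0.51 in CD VEH versus WT VEH and by 0.45 in WT JZL184 versus WT VEH. Tnfaip3, a feedback inhibitor of NF-κB, rose by 0.56 in CD VEH versus WT VEH, and Nfkbia, another inhibitor, fell by 0.50 in CD JZL184 versus CD VEH. The kinase gene Irak4 rose by 0.49 in WT JZL184 versus WT VEH. The calls in the other direction, named after their values were seen, were Ikbkg, which fell in CD VEH versus WT VEH, Tollip, Tab3 and Mapk14, which rose in CD JZL184 versus CD VEH, and Map3k7 and Mapk14, which fell in WT JZL184 versus WT VEH.

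Among 13 other genes of the thioredoxin system, all tested, 2 rose and 1 fell in CD VEH versus WT VEH, 1 rose and 2 fell in CD JZL184 versus CD VEH, and 1 rose and 2 fell in WT JZL184 versus WT VEH, shares near or below those of all genes. The peroxiredoxin gene Prdx4 had log2 fold-changes of 0.57, -0.53 and 0.31, all past the threshold, and with an offset for gene length they were 0.34, -0.27 and 0.11, the last no longer past it (adjusted p = 0.289). Prdx1 rose by 0.24 in CD VEH versus WT VEH and fell by 0.26 in CD JZL184 versus CD VEH. Txnrd1, the reductase that recharges thioredoxin, had log2 fold-changes of -0.22, 0.19 and -0.25, all past the threshold, and Glrx2 fell by 0.22 in WT JZL184 versus WT VEH. Txnip, the thioredoxin-binding protein gene, was at -0.39, 0.10 and 0.01 and did not pass (adjusted p = 0.212, 0.727 and 0.987).

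**Figure D4:**
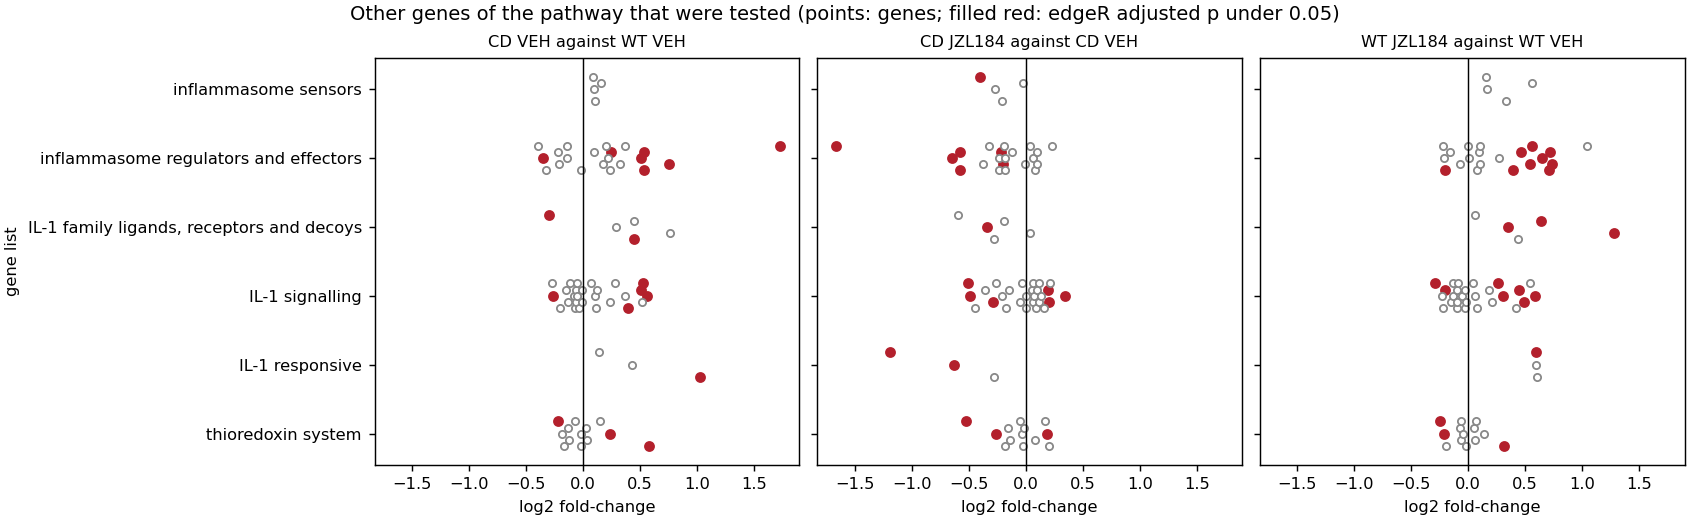
Log2 fold-change (x axis) of every other pathway gene tested, by list (y axis), in 3 comparisons, with 1 point per gene. Filled red points passed an adjusted p of 0.05; among the 21 regulators and effectors the red points lie mostly right of 0 in CD VEH and WT JZL184 versus WT VEH and all left of 0 in CD JZL184 versus CD VEH, while the 27 signalling genes scatter around 0.

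The named genes of these 6 lists made 13 calls in CD VEH versus WT VEH, of which 1 remained without WT VEH mouse C, 3 without WT VEH mouse D and 4 each without CD VEH mouse A or E. In WT JZL184 versus WT VEH 1 of 15 remained without WT VEH mouse C and 2 without mouse D, and 4 of the 14 that stayed over the filter remained without WT JZL184 mouse B. In CD JZL184 versus CD VEH 5 of 14 remained without CD VEH mouse E, 5 without CD JZL184 mouse E, 6 without CD VEH mouse A and 6 without CD JZL184 mouse A. Calls over all genes also became fewer in each of these fits. With an offset for gene length, 9 of 13, 12 of 15 and 10 of 14 calls remained in CD VEH versus WT VEH, WT JZL184 versus WT VEH and CD JZL184 versus CD VEH. The lost ones were Hmox1, Ccl2, Prdx1 and Txnrd1 in the first, Relb, Myd88 and Prdx4 in the second, and Sigirr, Myd88, Prdx1 and Txnrd1 in the third. In a model restricted to WT JZL184 and WT VEH hearts, 7 of 15 remained in that comparison, without P2rx7, Il1rap, Relb, Irak4, Myd88, Vcam1, Txnrd1 and Glrx2.

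The genes whose CPM followed a tested member most closely over the 11 hearts were named by Pearson's r on the log2 scale. They were Dsel, Irak3 and Atxn7l3b for Casp1 (all 0.97), Prcp, Tpm3 and Ostf1 for Gsdmd (0.99, 0.99 and 0.98), Ptbp3, Lin7a and Rras for Il1r1 (0.98, 0.97 and 0.97) and Cox6a1, Fkbpl and Ciao2b for Il1b (0.97, 0.96 and 0.96). For Txn1 they were Snrpd2, Polr1d and Usp50 (0.98, 0.98 and 0.97), for Casp4 Vasp, Mob3c and Pcsk5 (0.98, 0.95 and 0.93) and for Pycard Cnot6, Pi4k2b and Dus3l (0.95, 0.88 and 0.86). Among the members themselves Casp1 followed Txn1 and Gsdmd (r of 0.92 and 0.91), whereas Pycard and Casp1 were less alike (0.42). These hearts share the group structure and the library traits above, so the values describe likeness only.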

How the data were processed

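Ventricle RNA of 11 mice was sequenced on an Illumina instrument. Transcripts were quantified by the authors in Salmon 0.7.2 against mouse GRCm38 (mm10), and they deposited estimated counts per gene made with tximport, in 1 table of 22608 genes. Here these estimated counts were rounded, scaled with TMM factors and fitted with edgeR 4.0.16 (quasi-likelihood test) in 1 model of all 4 groups, on the 11319 genes whose mean log2 CPM reached 1. Benjamini-Hochberg adjustment ran over all genes tested, at 0.05. Of the identifiers, 22238 matched GENCODE mouse release 21. The members and gene lists were chosen with earlier results of these data known. Named genes were the 9 members, up to 6 genes per pathway list with the largest change past the threshold, Hmox1, Txnip, Il1rn and the 3 genes most like each tested member. One gene that the rule names is not reported here. P-values measure the spread between these mice. The script was tested on simulated data with few changed genes, a single fixed spread and no trend with gene length, so the test does not cover those traits of these hearts. Alternatives were DESeq2 1.42.0, other scalings, filters and offsets, and leaving out each mouse. Library totals of 69660232 to 92251443 counts set the counting precision, and Casp1 and Casp4 are related genes whose shared reads were not examined.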

Additional observations from a re-analysis of the deposited data

Results flagged for a closer look

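The effect of JZL184 differed between CD and WT mice for 6 of the 7 tested members (edgeR interaction term, adjusted p under 0.05). The difference in log2 fold-change, CD minus WT, was -1.84 for Il1b, -1.71 for Casp1, -1.20 for Gsdmd, -0.74 for Il1r1, -0.61 for Casp4 and -0.56 for Txn1. With an offset for gene length Txn1 was at -0.12 (adjusted p = 0.301) and Casp4 at -0.30 (adjusted p = 0.293).

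Among the 4 sensors tested 2 passed with a negative difference, and among the 21 regulators and effectors 12 passed with a negative and 2 with a positive one and 7 did not pass. For the genes named, the test gave -0.56 for Nod2, -0.74 for P2rx7, -2.70 for Hmox1, -1.30 for Casp8, -1.35 for Casp12 and -1.31 for Gbp2. In the interleukin-1 family and its targets it gave -1.87 for Il33, -0.54 for Il1rap, -0.98 for Sigirr, -1.79 for Ccl2, -1.23 for Icam1 and -0.87 for Vcam1. The 27 signalling genes were split, 8 with a negative and 7 with a positive difference past the threshold and a median of 0.06; the named ones, all negative, were at -0.59 for Myd88, -1.07 for Irak3, -0.70 for Irak4, -0.71 for Relb, -0.71 for Nfkbia and -0.90 for Tnfaip3. Of 13 genes of the thioredoxin system 2 passed with a negative and 3 with a positive difference, and those named were -0.84 for Prdx4 and -0.40 for Prdx1, and, in the other direction, 0.44 for Txnrd1 and 0.30 for Glrx2. Of all genes tested, 26.2% passed with a negative and 25.3% with a positive difference.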

How the results depend on the processing

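Leaving out 1 mouse at a time gave 0 to 6 members called in CD VEH versus WT VEH (4 with all mice), 1 to 7 in CD JZL184 versus CD VEH (6), 1 to 4 in WT JZL184 versus WT VEH (3), 4 to 5 in CD JZL184 versus WT JZL184 (4) and 4 to 7 for the interaction (6). In the first comparison calls over all genes ranged from 385 to 4201 in the same fits (3440 with all mice). In CD JZL184 versus CD VEH calls over all genes ranged from 2038 to 4655 (3831 with all mice), and in CD JZL184 versus WT JZL184 from 2957 to 4873 (4331). Where 1 WT VEH mouse was left, it was assumed to vary like the other groups. At an adjusted p under 0.01 the counts in the first 3 comparisons were 0, 1 and 1. When instead an adjusted p under 0.05 and a log2 fold-change of at least 0.5 in size were required, 3 members fell in CD JZL184 versus CD VEH. With the same cutoffs 2 were lower in CD JZL184 versus WT JZL184. Calls over all genes were not counted at these cutoffs. For Pycard in WT JZL184 versus WT VEH (-0.03), upper-quartile scaling gave 0.0126 and leaving out 1 mouse gave -0.12 (WT JZL184 mouse D) to 0.0942 (WT JZL184 mouse A), and without WT VEH mouse C it was 0.0294. For Il1b in CD JZL184 versus WT JZL184 (-0.36), leaving out 1 mouse gave -0.56 (CD JZL184 mouse C) to 0.0203 (WT JZL184 mouse B). The cause was not tested. Without CD VEH mouse E, Il1b fell under the filter; with no filter, an alternative added after seeing the data, it was at 1.27 (adjusted p = 0.0237) in CD VEH versus WT VEH and -0.93 (adjusted p = 0.0463) in CD JZL184 versus CD VEH. Over all genes, 3332 were called in WT JZL184 versus WT VEH and 1652 with only those groups in the model. The labels' replicate numbers could not be used for pairing, since the column names carry letters that no label gives. Deviations from the group means of hearts with one letter had an r of -0.25 to 0.31 over 8 pairs (1 over 0.1). Deviations within groups of 2 or 3 hearts are tied to each other, so these values cannot decide whether the letters mark a batch. A replicate block by that letter, added after seeing the data and with 3 residual degrees of freedom, gave 2 members in CD VEH versus WT VEH, 5 in CD JZL184 versus CD VEH, 0 in WT JZL184 versus WT VEH (edgeR; 3 at an unadjusted p under 0.05), 1 in CD JZL184 versus WT JZL184 and 5 for the interaction. Calls over all genes were not counted with this block. With 2 WT VEH mice, comparisons versus that group are the least precise.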
